A study of Mus musculus with 6 samples.

Results

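The genes described here are 35 mouse genes of sugar metabolism and of the response to low oxygen, among 43432 genes counted in each of 6 RNA sequencing libraries. They were chosen by symbol: hexokinases and the further enzymes of glycolysis, carriers of glucose, lactate and sugar phosphates, 4 enzymes of the pentose phosphate pathway, and 4 genes tied to hypoxia. All 35 were matched to an Ensembl identifier, and all 35 passed the filter on low counts that kept 12881 genes. The selection names 4 of them myeloid (Hk3, Pfkp, Slc2a3 and Slc37a2) and asks for a contrast with the other 31.

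The study used mice made for the deletion of Igf1, an insulin-like growth factor gene, in fibro-adipogenic progenitors (FAPs), mesenchymal progenitor cells that lie between muscle fibres, and which libraries carry the deletion is given by their titles alone. Of the 6 libraries, 3 have titles that call them control and 3 have titles that call them FID, all with the tag D3. Neither FID nor D3 is spelled out in the labels. The labels name skeletal muscle as the source of every library and give no strain, allele or Cre driver. They describe frozen muscle, but their protocols cover RNA from tissue and from primary FAPs, so whether a library holds whole muscle or isolated cells is not settled by them. Their protocols describe tamoxifen in corn oil, injected at 12 to 13 weeks of age on 5 days (dose 100 ug per g), without setting the groups apart, and mice of both sexes. Nothing in them ties a library to an animal of its own, and p-values therefore reflect only the spread between these libraries, which may be technical.

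Glycolysis splits glucose into pyruvate and yields ATP without oxygen. Hexokinases trap glucose in the cell as glucose 6-phosphate, which phosphofructokinase commits to glycolysis and glucose 6-phosphate dehydrogenase commits to the pentose phosphate pathway, the main source of NADPH in the cytosol. The transcription factor HIF-1 raises many of these genes when oxygen is low, and macrophages called to damaged muscle are known to use glycolysis heavily.

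Gene counts summed to between 5201853 (control 1) and 10093757 (control 3) per library. Levels are given as CPM, counts scaled to library size by TMM and given per 1e6, and differences as log2 fold changes of FID over control with their standard error (SE) from edgeR's quasi-likelihood test, adjusted over all genes by the Benjamini-Hochberg method. Igf1 stood at 134, 60.4 and 106 CPM across control 1 to 3 and 109, 107 and 81.6 CPM across FID 1 to 3, so its whole-gene level does not check the labels. The 12 markers of mature myofibres summed to only 18.0 to 87.2 CPM in libraries labelled muscle. Ckm, the muscle creatine kinase, was at or below 1.19 CPM, Eno3, the muscle enolase, ran from 8.01 to 20.96 CPM, and Acta1, skeletal actin, reached 30.9 CPM. Control 1 stood apart, with 4707 CPM of summed endothelial markers against 1326 to 2147 CPM in the other 5 libraries.

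The libraries also differed by group in the markers of the cells they held. The summed level of 16 macrophage markers was 5971, 5795 and 3625 CPM across control 1 to 3 and 10365, 9744 and 7429 CPM across FID 1 to 3. All 16 had a log2 fold change above 0, with a median of 0.76. The groups did not overlap in 8 of them (50%, against 13.0% of all tested genes that were higher without overlap). Csf1r, Lyz2, Mrc1, Cd14, C1qa, C1qb, C1qc and Mertk overlapped, with 0.04 for Mrc1 and 0.05 for Cd14. Lyz2 made up the largest part of the sum, at 1857, 2283 and 1429 CPM across control 1 to 3. Across FID 1 to 3 it stood at 4302, 2193 and 1720 CPM. The sum of 12 FAP markers ran from 61035 to 68960 CPM in control and from 31526 to 45880 CPM in FID, with 12 of 12 below 0. Most of this sum was collagen transcripts: Col1a1, Col1a2 and Col3a1 had means of 21995, 18594 and 18391 CPM in control. Their FID means were 11858, 11228 and 10315 CPM. Pdgfra, Dcn, Lum, Dpt and Pi16 overlapped between groups. Neutrophil markers summed to 41.7 to 48.4 CPM in control and 56.7 to 90.0 CPM in FID, and the 5 of 10 that were tested all lay above 0, with a median of 0.64. Among them Csf3r made up the largest part of the sum, with means of 24.2 CPM for control and 41.6 CPM for FID, and Mmp8 was higher in FID by DESeq2 (5.71 and 13.5 CPM, adjusted p 0.00875). Csf3r, Cxcr2, S100a8 and S100a9 overlapped between groups, the last 2 with log2 fold changes of 0.08 (SE 0.72) and 0.23 (SE 0.67). The untested Retnlg and Ltf had lower means in FID (1.67 and 0.65 CPM, 0.40 and 0.19 CPM for control and FID). The defining Ly6g, Camp and Ngp were at or below 0.20, 0.29 and 0.10 CPM. Endothelial markers were below 0 in 10 of 10 (median -0.63) and markers of mitosis in 8 of 8 (median -0.32), the latter summing to 474 to 633 CPM in control and 315 to 517 CPM in FID. The endothelial sums overlapped, at 4707, 2088 and 1367 CPM across control 1 to 3 and 1603, 2147 and 1326 CPM across FID 1 to 3. Only control 1 lay above the FID range. Where RNA of several cell types is mixed, as these marker levels show, fewer cells of a type and less RNA per cell cannot be told apart, and the part of these marker differences in the results below was not tested.

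**Figure D1:**
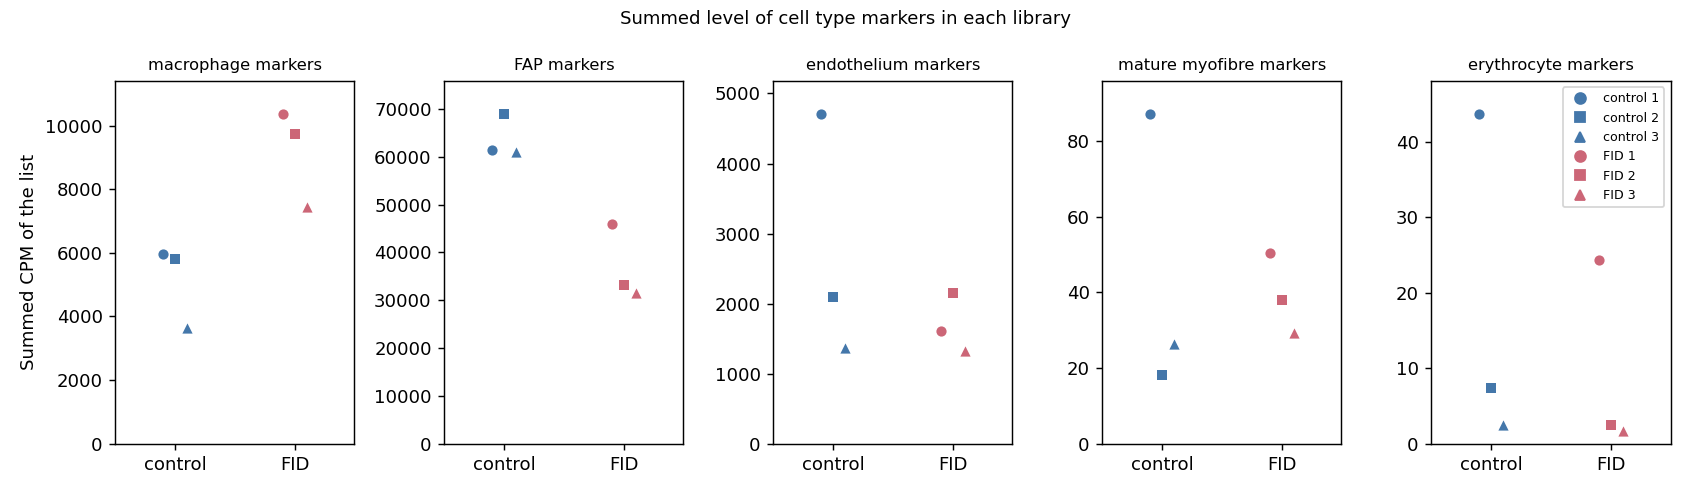
Summed CPM (vertical axis, from 0) of 5 lists of cell type markers in each library, 1 point per library. Macrophage sums of the FID libraries, 7429 to 10365 CPM, lie above those of control. FAP sums, mostly of collagen genes, lie below, and control 1 is highest for endothelium, myofibre and erythrocyte markers.

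No gene of the 12881 passed edgeR's adjusted threshold of 0.05 (0.00%), and so none of the 35 did. An unadjusted p under 0.05 was reached by 10 of the 35 genes (28.6%), 8 higher and 2 lower in FID, where 19.0% of all tested genes reached it (9.81% higher, 9.21% lower). In 13 of the 35 genes (37.1%) the ranges of the groups were separate, 11 higher and 2 lower, against 25.3% of all tested genes (13.0% higher, 12.3% lower). Log2 fold changes lay above 0 in 24 and below 0 in 11 of the genes, beside 47.8% above and 52.2% below over all tested genes, with a median of 0.19 beside -0.02 over all genes tested. DESeq2, run as an alternative, called 7 of the 35 at an adjusted p under 0.05 (20.0%, against 5.93% of all tested genes, 3.66% higher and 2.27% lower). Its calls were Slc37a2, Hk3, Pfkfb4, G6pdx, Taldo1 and Bnip3 higher and Hk2 lower in FID, and limma-voom with sample weights called those same 7 genes. Without FID 1, edgeR called 3 of the 35, Slc37a2, Hk3 and Pfkfb4, all higher in FID. Both of these settings also called many more genes over all, as given under the processing below. Plain limma-voom called 0 of the 35, and so did edgeR with other scalings or with the replicate block. Each fit without any other single library also called 0 of them.

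**Figure D2:**
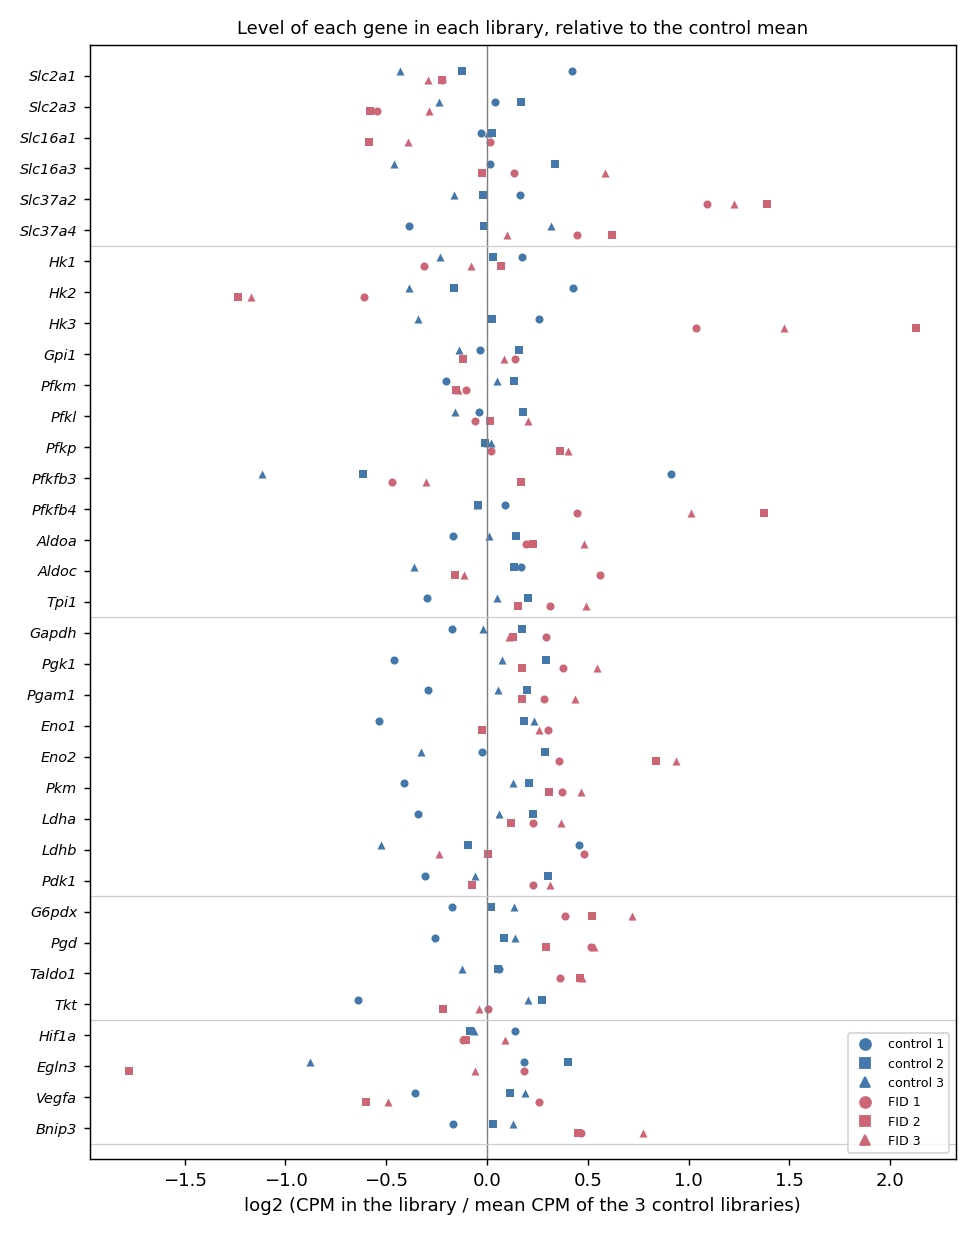
Each of the 35 genes (rows, grouped by role) in each library, as log2 of its CPM over the mean CPM of the 3 control libraries, 1 point per library. Slc37a2, Hk3, Pfkfb4, G6pdx, Pgd, Taldo1, Bnip3, Pfkp, Aldoa, Eno2 and Pkm have all FID points to the right of all control points. Hk2 and Slc2a3 have them to the left.

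The hexokinases carried the widest contrast between genes of 1 family. Hk3 (ENSMUSG00000025877, mm10 chromosome 13, 55005985 to 55021385, minus strand, protein coding), the hexokinase of myeloid cells, stood at 50.4, 42.9 and 33.3 CPM in control 1, 2 and 3. In FID 1, 2 and 3 it stood at 86.7, 185 and 117 CPM. Every FID library lay above every control library, and FID 2 was highest. The means were 42.2 ± 8.59 CPM for control and 130 ± 50.1 CPM for FID (SD, n = 3 each), 3.08-fold higher in FID (log2 fold change 1.62, SE 0.29, 95% interval 0.94 to 2.31). Its adjusted p was 0.136 by edgeR and 9.74e-05 by DESeq2.

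Hk2 (ENSMUSG00000000628, chromosome 6, 82725025 to 82774454, minus strand, protein coding), an inducible hexokinase of muscle, fat and growing cells, went the other way. Its levels were 306, 203 and 174 CPM across the control libraries and 149, 96.6 and 101 CPM across the FID libraries, and the groups did not overlap. Control 1 was highest and the log2 fold change of -0.98 (SE 0.26; adjusted p 0.144 by edgeR and 0.0185 by DESeq2) was -0.71 without it. Hk1, the hexokinase found in most tissues, overlapped between groups at 189, 171 and 142 CPM across the control libraries and 135, 176 and 159 CPM across the FID libraries. Its log2 fold change was -0.10 (95% interval -0.47 to 0.28).

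Divided by exon length, so that genes can be compared, Hk2 was the most abundant of the 3 hexokinases in every control library and Hk3 in FID 2 and 3. Hk3 made up 15.7%, 17.7% and 16.5% of the summed hexokinase level across control 1 to 3 and 36.6%, 57.7% and 47.3% across FID 1 to 3. Hk2 made up 54.6 ± 3.74% of it over the control libraries and 27.5 ± 10.3% over the FID libraries (SD, n = 3 each). FID 1 lay between the control libraries and the other FID libraries for both genes. Hk1 kept to 23.7% to 30.5% over all 6 libraries.

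**Figure D3:**
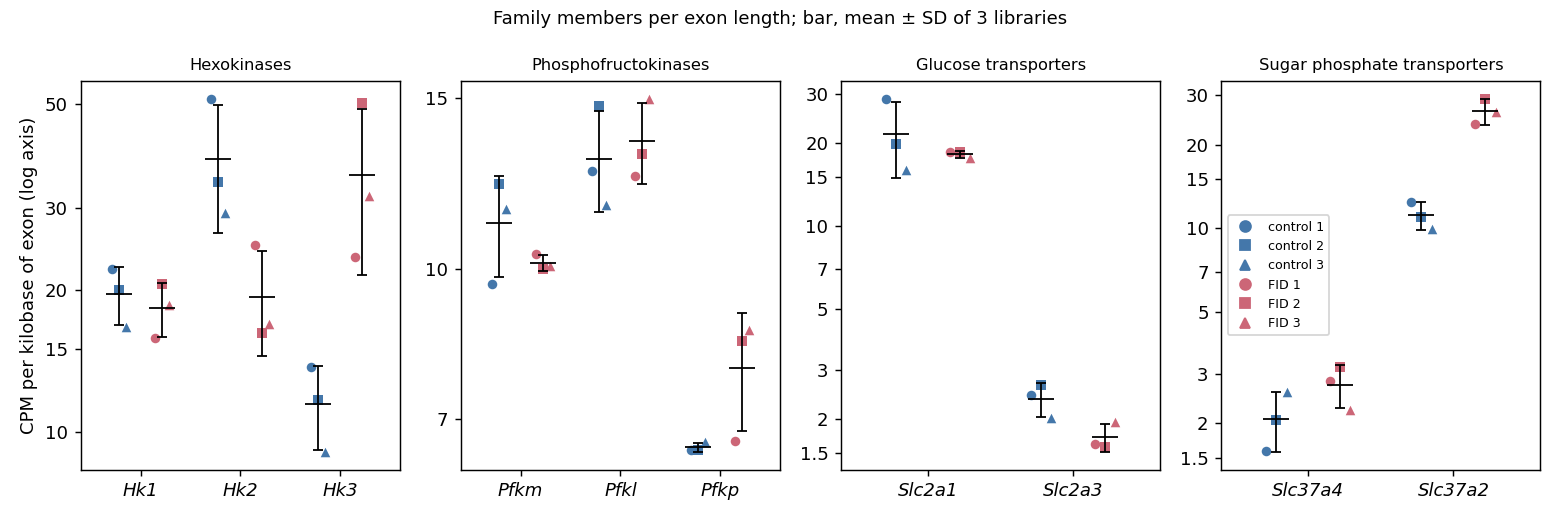
CPM per kilobase of exon (log axis) of the genes of 4 families in each library, with the mean ± SD of 3 libraries. Hk3 and Slc37a2 are higher in all FID libraries, Hk2 and Slc2a3 are lower, and Hk1, Pfkm, Pfkl, Slc2a1 and Slc37a4 overlap.

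The start sites of the genes that set the groups apart are shown because Hk2 and Hk3 belong to 1 family yet differed in opposite directions, and Slc37a2 had the smallest unadjusted p of the 35. The 250 bases before a RefSeq start site (build GRCm38.p6) are written 5′ to 3′ on the gene's strand, with the core of the hypoxia response element in capitals (ACGTG or GCGTG on either strand, which includes the ACGTG inside the E-box CACGTG). The window of Hk2 is chr6:82774455-82774704, that of Hk3 chr13:55021386-55021635 and that of Slc37a2 chr9:37255739-37255988, all on the minus strand.
Hk2: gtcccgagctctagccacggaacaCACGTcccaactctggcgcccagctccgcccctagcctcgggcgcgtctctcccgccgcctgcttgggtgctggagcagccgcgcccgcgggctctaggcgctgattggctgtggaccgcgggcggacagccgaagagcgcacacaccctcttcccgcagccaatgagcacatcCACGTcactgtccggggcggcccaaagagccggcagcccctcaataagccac
Hk3: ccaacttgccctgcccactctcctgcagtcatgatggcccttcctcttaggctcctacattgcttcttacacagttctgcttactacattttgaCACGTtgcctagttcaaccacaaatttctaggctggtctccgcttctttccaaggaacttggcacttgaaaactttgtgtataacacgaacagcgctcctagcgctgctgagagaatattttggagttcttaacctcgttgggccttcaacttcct
Slc37a2: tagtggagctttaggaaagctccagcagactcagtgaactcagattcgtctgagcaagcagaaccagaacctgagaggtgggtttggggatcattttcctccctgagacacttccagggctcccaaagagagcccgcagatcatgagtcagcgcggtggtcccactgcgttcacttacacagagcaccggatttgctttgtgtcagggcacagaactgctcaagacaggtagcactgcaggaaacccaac
The Hk2 window holds 2 such cores, the Hk3 window 1 and the Slc37a2 window 0. The core GAGGAAG bound by the myeloid factor PU.1, searched on both strands, was in 8 of 51 windows of the 35 genes (15.7%) and in 10.6% of all 32851 windows in the table. Its 6 genes were Hk3 and also Hk1, Pfkm, Pgam1, Aldoa and Egln3, and the windows of Pfkp and Slc37a2 held 0. Slc2a3, also named myeloid, had no window and was not searched.

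Carriers of glucose, lactate and sugar phosphates were mixed. Slc37a2 (ENSMUSG00000032122, chromosome 9, 37227585 to 37255738, minus strand, protein coding), a sugar phosphate exchanger of the endoplasmic reticulum that is abundant in macrophages, stood at 82.9, 73.0 and 66.1 CPM in control 1, 2 and 3. It stood at 158, 194 and 173 CPM across FID 1 to 3, so the lowest FID library was well above the highest control library. The log2 fold change was 1.24 (SE 0.14, 95% interval 0.91 to 1.58; adjusted p 0.122 by edgeR and 4.17e-09 by DESeq2). With 1 library left out it ranged from 1.16 to 1.33. Its relative Slc37a4, the glucose 6-phosphate transporter that feeds glucose 6-phosphatase, was low and overlapped, at 4.55, 5.88 and 7.42 CPM across the control libraries and 8.11, 9.13 and 6.37 CPM across the FID libraries (log2 fold change 0.39, 95% interval -0.21 to 0.98).

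Slc2a3, which encodes the high-affinity glucose transporter GLUT3 of neurons and leukocytes, was lower in FID although the selection names it myeloid. Its levels were 17.6, 19.3 and 14.5 CPM across the control libraries and 11.7, 11.4 and 14.04 CPM across the FID libraries. The groups did not overlap, but FID 3 lay close under control 3, and the log2 fold change was -0.46 (SE 0.18; adjusted p 0.220 by edgeR and 0.226 by DESeq2). Slc2a1, which encodes the widespread transporter GLUT1, stood at 101, 69.4 and 56.0 CPM across the control libraries and 64.8, 64.8 and 61.8 CPM across the FID libraries. Its log2 fold change of -0.24 rested on control 1 and was 0.02 without that library. Per exon length GLUT1 transcripts made up 88.2% to 92.3% of the 2 glucose transporters in every library.

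The lactate carriers did not separate the groups. Slc16a1, which encodes the monocarboxylate transporter MCT1, had 101, 104 and 103 CPM across the control libraries and 104, 68.4 and 78.2 CPM across the FID libraries (log2 fold change -0.30, 95% interval -0.69 to 0.09). FID 1 matched the control libraries while FID 2 and 3 were lower. Slc16a3, which encodes the lactate exporter MCT4 of glycolytic cells, had 56.4, 70.4 and 40.5 CPM across the control libraries and 61.1, 54.7 and 83.6 CPM across the FID libraries (log2 fold change 0.25, 95% interval -0.31 to 0.82).

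Upper glycolysis beyond the hexokinases showed differences mainly in Pfkfb4. This gene encodes a bifunctional enzyme that sets the level of fructose 2,6-bisphosphate, the activator of phosphofructokinase. It was low at 6.33, 5.78 and 5.76 CPM in control and stood at 8.11, 15.4 and 12.0 CPM across the FID libraries, without overlap. The log2 fold change was 1.00 (SE 0.26; adjusted p 0.142 by edgeR and 0.0394 by DESeq2). Pfkfb3, the other inducible enzyme of this kind, varied most within control, at 107, 37.1 and 26.3 CPM, against 41.0, 63.8 and 46.0 CPM across the FID libraries. Its log2 fold change of -0.16 (SE 0.49) was 0.67 without control 1.

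Of the 3 phosphofructokinase genes, which encode the committing enzyme of glycolysis, Pfkp is the one the selection names myeloid. It stood at 87.2, 87.1 and 88.9 CPM across the control libraries and 89.0, 113 and 116 CPM across the FID libraries. The groups did not overlap, yet FID 1 exceeded control 3 by less than 1 CPM (log2 fold change 0.27, SE 0.14; adjusted p 0.320 by edgeR and 0.382 by DESeq2). The muscle isoform Pfkm and the liver isoform Pfkl overlapped between groups, with log2 fold changes of -0.14 (95% interval -0.45 to 0.18) and 0.06 (95% interval -0.27 to 0.38). Per exon length, Pfkp made up 19.4% to 22.6% of the 3 genes in control and 22.5% to 26.7% in FID.

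Further along, Gpi1, the isomerase after hexokinase, measured 273 ± 29.1 CPM for control and 281 ± 25.8 CPM for FID (SD, n = 3 each; log2 fold change 0.04, 95% interval -0.29 to 0.36). Aldoa, the main aldolase, which cleaves the 6-carbon sugar, stood at 621, 770 and 703 CPM across the control libraries and 799, 817 and 974 CPM across the FID libraries. The groups did not overlap and the log2 fold change was 0.31 (SE 0.15) with an edgeR adjusted p of 0.301. Tpi1, the triose phosphate isomerase, had 0.32 (SE 0.17) with overlap. Aldoc, the aldolase of brain, was near the lower end of detection at 1.37 to 2.59 CPM.

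All 9 genes of lower glycolysis and pyruvate handling had a log2 fold change above 0, with a median of 0.24, where 47.8% of all tested genes lay above 0. Of the 9, 1 reached an unadjusted p under 0.05 (11.1%, against 19.0% of all tested genes) and 0 passed the adjusted test by edgeR or by DESeq2 (against 0.00% and 5.93%). Pkm, the pyruvate kinase of most tissues, was the most abundant of the 35 genes, at 1439, 2205 and 2090 CPM across the control libraries and 2476, 2369 and 2644 CPM across the FID libraries. It separated the groups (log2 fold change 0.39, SE 0.18, edgeR adjusted p 0.302). Control 1 was far below the other control libraries, and the log2 fold change was 0.22 without it.

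The same library was lowest for most of its neighbours in the pathway. Gapdh, the enzyme that makes the first NADH of glycolysis, had 1307, 1664 and 1454 CPM across the control libraries and 1806, 1611 and 1589 CPM across the FID libraries. Pgk1, the first ATP-yielding kinase of the pathway, had 317, 534 and 459 CPM across the control libraries and 567, 491 and 636 CPM across the FID libraries. Ldha, which turns pyruvate into lactate, had 620, 921 and 821 CPM against 921, 856 and 1016 CPM. In these 3 genes the groups overlapped, with log2 fold changes of 0.18 (SE 0.14), 0.37 (SE 0.21) and 0.24 (SE 0.17). Without control 1 the values were 0.10, 0.19 and 0.09.

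Pgam1, the phosphoglycerate mutase, had a log2 fold change of 0.30 (SE 0.16) with overlap. Eno1, the main enolase, had 627, 1035 and 1070 CPM across the control libraries and 1124, 894 and 1089 CPM across the FID libraries, and its log2 fold change of 0.19 was -0.02 without control 1. Eno2, the enolase of neurons, was low but separated the groups, at 2.77, 3.45 and 2.25 CPM across the control libraries and 3.61, 5.04 and 5.40 CPM across the FID libraries (log2 fold change 0.73, SE 0.29, edgeR adjusted p 0.240). Ldhb, the lactate dehydrogenase of oxidative tissue, and Pdk1, the kinase that shuts pyruvate out of the mitochondrion, overlapped with log2 fold changes of 0.13 (SE 0.29) and 0.16 (SE 0.19). Reads of Gapdh, Aldoa, Pgk1, Pgam1, Eno1 and Ldha can be shared with near-identical copies in the genome, and the files list 3.11% to 4.49% of reads as matching more than 1 place, outside the gene counts, so these levels are uncertain.

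**Figure D4:**
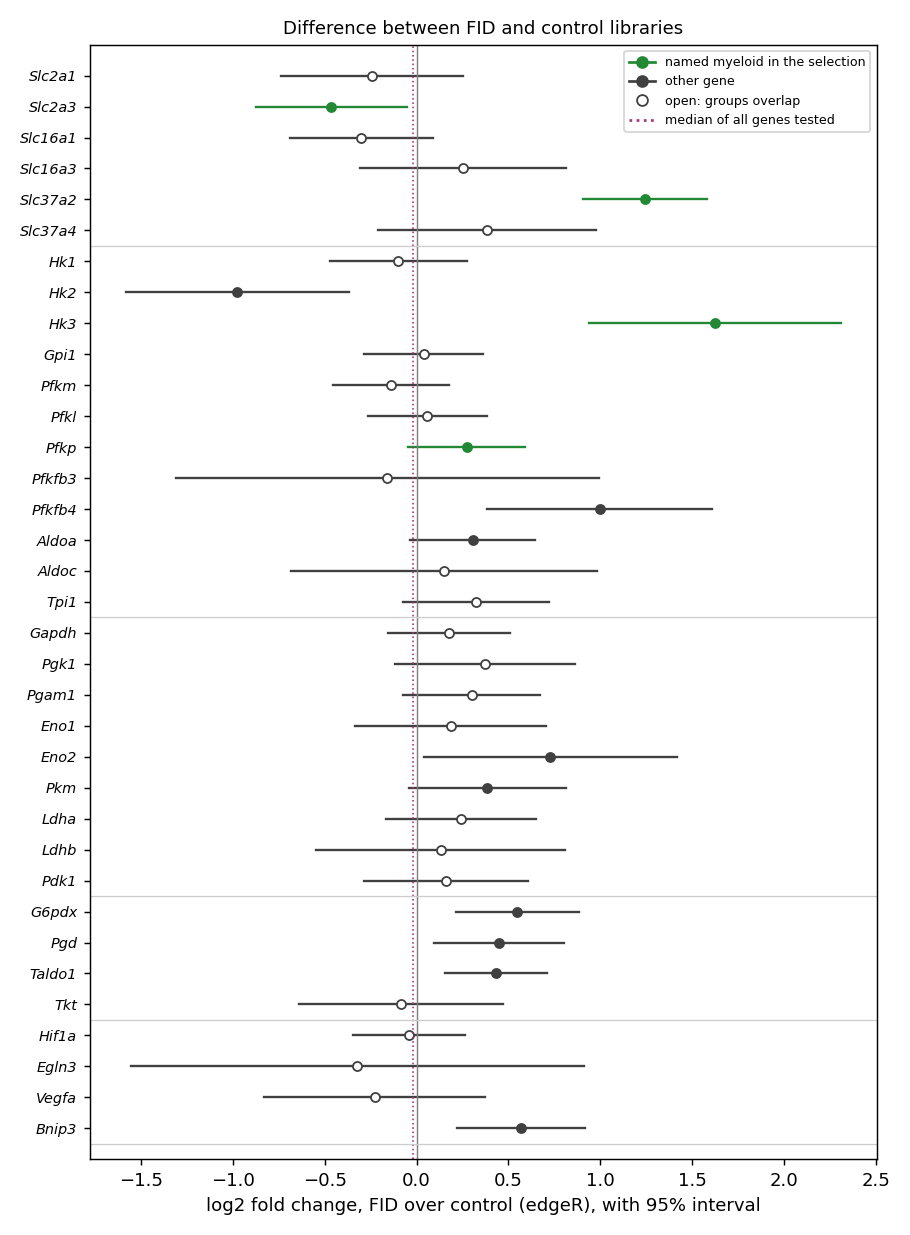
Log2 fold change of FID over control for each gene (rows, grouped by role) with its 95% interval from edgeR. Filled points mark groups without overlap, green the 4 genes named myeloid, and the dotted line the median of all genes tested at -0.02. Green points lie both right (Hk3 1.62, Slc37a2 1.24, Pfkp 0.27) and left (Slc2a3 -0.46) of 0.

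In the pentose phosphate pathway 3 of 4 enzymes were higher in all FID libraries, each with an unadjusted p under 0.05, against 9.81% of all tested genes that were higher at that threshold. G6pdx, the entry enzyme and its rate-limiting step, stood at 85.0, 97.2 and 105 CPM across control 1 to 3 and 125, 138 and 158 CPM across FID 1 to 3. The log2 fold change was 0.55 (SE 0.14, 1.46-fold; adjusted p 0.141 by edgeR and 0.0305 by DESeq2). Its exons overlap those of Ikbkg on the opposite strand over 13.6% of their length, and the strand setting of the counting is not given in the sources used here.

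Pgd, which makes the second NADPH of the pathway, had 194, 246 and 256 CPM across the control libraries and 331, 284 and 335 CPM across the FID libraries (log2 fold change 0.45, SE 0.15; adjusted p 0.193 by edgeR and 0.0997 by DESeq2). Taldo1, the transaldolase of the non-oxidative branch, had 122, 122 and 107 CPM across the control libraries and 150, 161 and 162 CPM across the FID libraries (log2 fold change 0.43, SE 0.12; adjusted p 0.150 by edgeR and 0.0324 by DESeq2). In both genes every FID library was above every control library. Tkt, the transketolase of the same branch, overlapped at 129, 243 and 232 CPM across the control libraries and 202, 173 and 196 CPM across the FID libraries. Its log2 fold change was -0.08 (95% interval -0.64 to 0.47), and it was -0.32 without control 1 and 0.08 without control 2.

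The hypoxia genes did not share a direction. Bnip3, a mitochondrial protein that drives mitophagy and a classical HIF-1 target, stood at 29.3, 33.6 and 35.9 CPM across the control libraries and 45.4, 45.0 and 56.3 CPM across the FID libraries, without overlap (log2 fold change 0.57, SE 0.15; adjusted p 0.141 by edgeR and 0.0437 by DESeq2). Hif1a, which encodes the oxygen-regulated subunit of HIF-1 and is controlled mainly at the protein level, stood at 334, 286 and 290 CPM across the control libraries and 279, 282 and 323 CPM across the FID libraries. Its log2 fold change was -0.04, and the 95% interval of -0.35 to 0.27 leaves out the Bnip3 estimate of 0.57. It overlaps the 95% interval of Bnip3, 0.22 to 0.92, so a difference between these genes is not shown.

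Egln3, a prolyl hydroxylase that marks HIF for destruction and is itself a HIF target, was low and scattered at 6.53, 7.60 and 3.12 CPM across the control libraries and 6.54, 1.68 and 5.51 CPM across the FID libraries. Its log2 fold change was -0.32 (SE 0.53). Vegfa, the vascular growth factor induced by hypoxia, had 64.1, 88.8 and 93.4 CPM across the control libraries and 98.3, 54.2 and 58.3 CPM across the FID libraries. The highest Vegfa level was in FID 1 and the 2 lowest were in FID 2 and 3, and the log2 fold change was -0.23 (95% interval -0.83 to 0.37). Exons of Bnip3 share 22.3% of their length with an antisense transcript, whose reads may not be separated from it.

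The same kind of window is shown for Bnip3, the hypoxia gene that DESeq2 called, beside Ldha, another known HIF-1 target whose groups overlapped, with the hypoxia core again in capitals. The window of Bnip3 is chr7:138909507-138909756 on the minus strand, and that of Ldha is chr7:46845554-46845803 on the plus strand, the first of its start sites in the table.
Bnip3: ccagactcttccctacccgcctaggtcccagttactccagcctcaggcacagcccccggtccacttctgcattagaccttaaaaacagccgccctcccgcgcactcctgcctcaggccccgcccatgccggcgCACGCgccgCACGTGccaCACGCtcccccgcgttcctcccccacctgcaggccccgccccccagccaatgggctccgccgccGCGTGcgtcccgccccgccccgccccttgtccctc
Ldha: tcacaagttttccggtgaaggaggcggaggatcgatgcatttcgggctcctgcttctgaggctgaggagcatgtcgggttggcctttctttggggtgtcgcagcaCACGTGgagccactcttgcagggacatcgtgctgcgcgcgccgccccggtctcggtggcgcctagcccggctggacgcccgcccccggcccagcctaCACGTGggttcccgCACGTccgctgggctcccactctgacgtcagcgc
Each of these windows holds 5 cores, some of them overlapping. RefSeq gave a start site for 34 of the 35 genes, with 51 windows in all, some of which overlap. A core was found in 37 of the 51 (72.5%), and in 38.6% of all 32851 windows of the same length. Genes with and without a difference between the groups both carry it, and a match of letters is not a bound site. The 32851 windows belong to 27025 genes, more than the 12881 tested here. They were not matched to the 51 for base content or expression, and both forms of the hypoxia core contain CG. The difference in share is therefore no measure of enrichment. The core of the antioxidant response element, TGACNNNGC on either strand, was in 4 of the 51 windows (7.84%), those of G6pdx, Hk1, Aldoa and Slc16a1, and in 10.2% of all windows.

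The contrast that the selection asks for was made within families and within libraries, as the log2 ratio of the gene named myeloid to its relatives. With 0.5 CPM added to each level, such a ratio depends little on library scaling except where a gene is low, as Slc37a4 is. Hk3 over the sum of Hk1 and Hk2 was -3.28, -3.11 and -3.23 across control 1 to 3 and -1.71, -0.56 and -1.14 across FID 1 to 3. The ratio was 2.07 higher in FID (SE 0.34, a 4.20-fold change), and the groups did not overlap (exact two-sided permutation p = 0.10, the smallest that 3 libraries against 3 can give).

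Slc37a2 over Slc37a4 was 4.05, 3.53 and 3.07 in control and 4.20, 4.33 and 4.66 in FID, also without overlap. The difference was 0.85 (SE 0.31, exact permutation p = 0.10). Pfkp over the sum of Pfkm and Pfkl differed by 0.26 (SE 0.13, exact permutation p = 0.20), with FID 1 at -0.40 between control 1 and control 3. Slc2a3 over Slc2a1 differed by -0.25 (SE 0.24, exact permutation p = 0.40), with control 1 lowest of all 6 libraries at -2.49. Over these 4 ratios the Benjamini-Hochberg adjusted exact p was 0.20, 0.20, 0.27 and 0.40 for the Hk3, Slc37a2, Pfkp and Slc2a3 ratios.

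**Figure D5:**
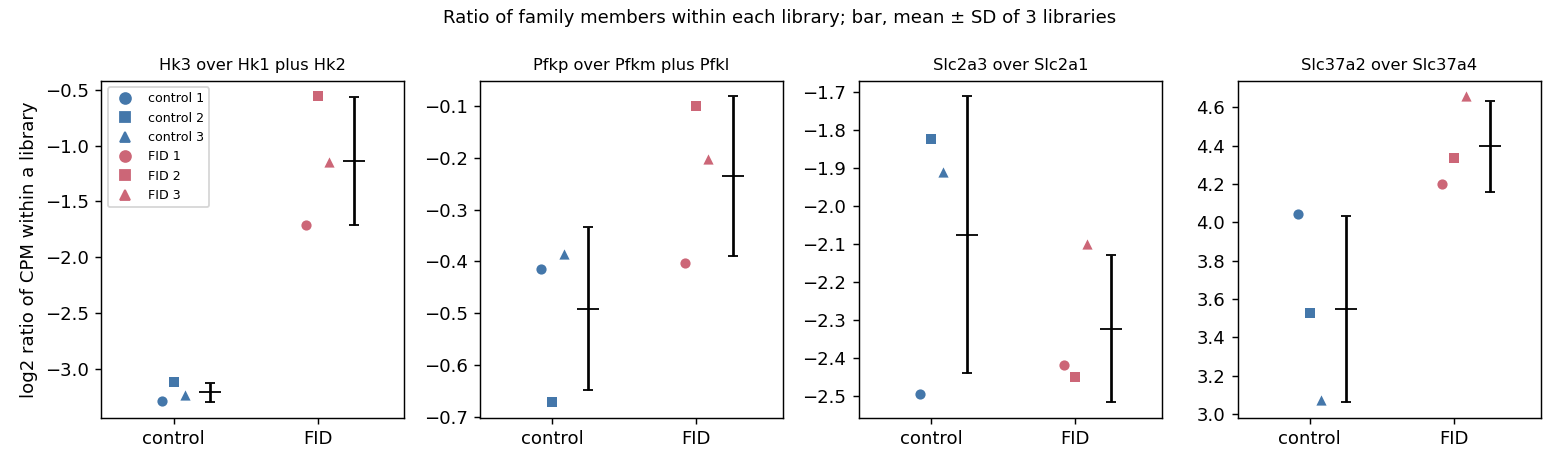
Log2 ratio of CPM within each library (vertical axis, a separate scale per panel) for 4 pairs of family members, with the mean ± SD of 3 libraries. The FID points lie above all control points for Hk3 and Slc37a2 and overlap with them for Pfkp and Slc2a3.

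As a set, the 4 genes named myeloid had a median log2 fold change of 0.76 with 3 above and 1 below 0, and the other 31 had 0.18 with 21 above and 10 below 0. The groups did not overlap in any of the 4, and they did not overlap in 9 of the other 31 (29.0%), beside 25.3% of all tested genes. Macrophage markers also had a median of 0.76, but that of the 4 genes is only the midpoint of Pfkp (0.27) and Slc37a2 (1.24). A relation between the 2 sets was not tested. The 4 genes ranged from -0.46 to 1.62. Interferon response markers, which summed to 240 to 855 CPM in control, 728 CPM in FID 1 and 5660 and 3120.5 CPM in FID 2 and 3, had the order of Hk3 within the FID group. Slc37a2 and Pfkfb4 had that order too, and so did Hk1 and Pfkfb3, whose control and FID groups overlapped. The macrophage sum did not have it, with FID 1 highest at 10365 CPM. A relation was not tested.

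Further genes of the same pathways were taken from lists by function. Of 20 tested genes of glycogen and the rest of glycolysis and of 12 tested genes of pyruvate entry, 0 reached an unadjusted p under 0.05 by edgeR, where 19.0% of all tested genes did, and 0 were called by DESeq2. Their medians were 0.01 and 0.11. Of 8 further pentose phosphate genes, 2 reached it (25%, near the share of all tested genes), both higher: Prps2, which makes the ribose donor for nucleotides (log2 fold change 0.37, SE 0.12), and the epimerase gene Rpe (0.40, SE 0.16).

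Among 12 tested carriers of sugar and lactate, 2 were higher and 1 lower at that threshold, together 25% and again near the 19.0% of all tested genes. Slc2a6, a lysosomal sugar transporter of inflammatory macrophages, stood at 4.75, 4.36 and 4.39 CPM across the control libraries and 6.65, 10.7 and 9.83 CPM across the FID libraries (log2 fold change 1.01, SE 0.24; adjusted p 0.138 by edgeR and 0.0294 by DESeq2). Slc16a7, which encodes the monocarboxylate transporter MCT2, stood at 5.14, 6.39 and 5.27 CPM across the control libraries and 10.3, 10.3 and 13.4 CPM across the FID libraries (log2 fold change 1.01, SE 0.21; adjusted p 0.136 by edgeR and 0.0102 by DESeq2). Slc2a13, a carrier of myo-inositol, was lower (log2 fold change -0.46, SE 0.17).

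Regulators and further targets of the hypoxia pathway were mixed as well. Of 9 tested regulators 0 reached an unadjusted p under 0.05, and Epas1, which encodes HIF-2 alpha of endothelium, stood at 467 CPM in control 1 against 93.9 to 157 CPM in the other libraries. Of 29 tested targets, 9 lay above 0 (31.0%, against 47.8% of all tested genes) and 20 below, with a median of -0.22. At an unadjusted p under 0.05, 1 was higher and 2 were lower, 10.3% against 19.0% of all tested genes. Plin2, which coats lipid droplets, stood at 348, 394 and 349 CPM across the control libraries and 580, 921 and 813 CPM across the FID libraries (log2 fold change 1.08, SE 0.19, edgeR adjusted p 0.122). Rora, a nuclear receptor gene, had -0.79 (SE 0.17) and Loxl2, a collagen cross-linking oxidase gene, -0.36 (SE 0.15).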

How the data were processed

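Counts of reads per gene are used as the authors deposited them, raw and by Ensembl identifier, for 3 control and 3 FID libraries. The submitters' processing notes name mm10 as the build and, without role or order, Bowtie2 2.5.4, STAR, HTSeq, cutadapt, SAMtools and DESeq2. Which annotation release and strand setting were used is not given in the sources used here. Entries that name no gene made up 9.60% to 10.9% of each file and were left out. A symbol was found for 42462 of 43432 genes (97.8%), and positions and exon lengths are those of GENCODE M21 on the same assembly.

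Genes were kept by filterByExpr (minimum count 10, minimum total 15), scaled by TMM and tested with edgeR 4.0.16 (glmQLFit and glmQLFTest, two-sided, group as the only term). The SE is the absolute log2 fold change over the square root of F. DESeq2 1.42.0 and limma 3.58.1 were alternatives, as were other scalings, no filter, a replicate term and leaving out each library. On simulated counts at a coefficient of variation of 23%, near the 23.1% of these data, the edgeR step recovered 50.0% of genes changed 2-fold. It recovered 99.0% of those changed 4-fold. The simulation gave every gene the same variation and had no outlying library. These shares therefore do not carry over to the libraries here, where the same step called 0 of 12881 genes. Isoform ratios used CPM with a pseudocount of 0.5. Gene counts per library ran from 5201853 to 10093757. A count of 0 would allow up to 3 counts, or 0.577 CPM of gene counts in control 1 and 0.297 in control 3, for counting error only. Libraries of 1 group differed beyond sampling noise (chi-square per degree of freedom 14.1 to 46.0). Each was counted as 1 sample, although this spread does not show that they came from separate animals.

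The 35 genes, the lists and the families were chosen with earlier results of these data known. Genes named beside the 35 are Igf1, markers and, from each list of further pathway genes, at most 3 with the smallest unadjusted p. The choice of which to print was made with their values known.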

Additional observations from a re-analysis of the deposited data

How the results depend on the processing

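The count of called genes depended on the tool. Against 0 by edgeR, DESeq2 called 764 genes (472 higher, 292 lower), limma-voom with sample weights 1531 (886 higher, 645 lower) and edgeR with no filter on low counts 269 (218 higher, 51 lower). Among the 35 genes these settings called 7, 7 and 2. The 7 are 20.0% of the 35, where DESeq2 called 5.93% of all tested genes. With sample weights the same 7 stood beside a larger count, 1531 of 12881 tested genes, and so stood out less. With no filter more genes are tested, and their number is not given here. Leaving out 1 library gave 0 to 359 genes (0 to 283 higher, 0 to 76 lower) and 0 to 3 of the 35, the highest counts being those without FID 1. The genes of the 35 that were lower at an unadjusted p under 0.05 numbered 2, but 1 with no filter, 4 with sample weights and 1 to 3 with 1 library left out. The median of the 35 ran from 0.14 without FID 1 to 0.29 without control 2. Titles number the libraries 1 to 3 in each group, but deviations of libraries with the same number correlated at -0.013, -0.32 and 0.34, so the numbers were not taken to pair them. With the replicate number as a block, edgeR called 0 genes, 8 of the 35 had an unadjusted p under 0.05 against 10 without it, 1 of them lower, and Pfkfb3 had 0.091. Shares of all tested genes at the unadjusted threshold are not given for these alternatives, so their counts describe the 35 alone.

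Fold changes near 0 changed sign. With sample weights Gpi1 had -0.047, Aldoc -0.034, Pdk1 -0.00067, Hif1a 0.051 and Pfkfb3 0.39, and with plain limma-voom Pfkfb3 had 0.16. With 1 library left out the ranges were -0.40 to 0.022 for Slc2a1, -0.19 to 0.012 for Hk1, -0.011 to 0.13 for Gpi1, -0.020 to 0.17 for Pfkl, -0.49 to 0.67 for Pfkfb3 and -0.10 to 0.27 for Aldoc. They were -0.025 to 0.34 for Eno1, -0.078 to 0.41 for Ldhb, -0.32 to 0.082 for Tkt, -0.11 to 0.032 for Hif1a and -0.65 to 0.077 for Egln3. The causes of these changes were not tested. The 7 genes called by DESeq2 kept their direction in all 13 alternatives. These include DESeq2 itself and reuse the libraries by which the genes were picked, so the kept direction is no separate evidence. The 4 isoform ratios kept theirs in all 8 of their alternatives. Depth limits Aldoc most, which had 10 counts in control 1.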

Other observations

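Eno1b, a protein-coding gene nearly identical to Eno1, varied widely within both groups. Control 1, 2 and 3 had 21.4, 78.6 and 0.88 CPM of it, and FID 1, 2 and 3 had 1.24, 34.2 and 72.6 CPM. Eno1 and Eno1b summed to 648, 1113 and 1071 CPM for the control libraries and to 1125, 929 and 1162 CPM for the FID libraries. Adding the copy moved FID 3 above FID 1 and control 2 above control 3, and control 1 and FID 2 were lowest with and without it. None of 8 other copies, named after Aldoa, Gapdh, Pgam1 or Ldha, exceeded 1.46 CPM in any library.

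The 35 genes took 0.77%, 1.01% and 0.96% of all gene counts in the control libraries and 1.11%, 1.01% and 1.16% in the FID libraries, and FID 2 lay just below control 2.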
